A study of Homo sapiens with 6 samples.

Results

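The regions described here were the thymidine glycol (Tg) sites that lay at the very ends of the human autosomes. A site was taken when its midpoint fell less than 1 Mb from either end of chromosomes 1 to 22 in the hg38 build. The rule used position alone and selected 450 sites, of which 289 came from the 9373 sites listed for double-knockout cells and 161 from the 3688 sites listed for wild-type cells. Of the sites on the autosomes, 3.28% (95% exact binomial interval 2.92% to 3.67%) of the 8810 double-knockout sites and 4.64% (3.96% to 5.39%) of the 3472 wild-type sites were at the ends, which made up 1.53% of the autosomal length. Closest to the limit, the outermost double-knockout site kept lay 999.7 kb from the end of 19q and the nearest one left out lay 1007 kb from the end of 12q, and in the wild-type list these distances were 992.5 kb on 15q and 1007 kb on 12q.

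The study mapped Tg in HEK293T cells, a line of human embryonic kidney origin transformed by adenovirus DNA that also carries the SV40 large T antigen and has an unbalanced karyotype. The double-knockout cells were the isogenic line of genotype NTHL1-/-,NEIL1-/-, and the other cells were wild type; no treatment is given in the labels. There were 2 labelled libraries of double-knockout cells, 2 of wild-type cells and 1 input library of each genotype, but the deposited data were 1 list of sites per genotype. No value below therefore has a spread between libraries, no p-value can be given, and the number of knockout clones is not given in the sources used here.

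Tg is an oxidised thymine that blocks most DNA polymerases. NTHL1 and NEIL1 are DNA glycosylases that cut it out and open base excision repair. In DPC-Seq, the method used, purified NTHL1 is trapped covalently on the DNA at the Tg it excises, and the trapped fragments are pulled down and sequenced. Chromosome ends are capped by telomeres, long arrays of the TTAGGG repeat, and next to them lie subtelomeres, mosaics of blocks that are nearly identical on several chromosomes, followed by gene-rich sequence that is often high in GC and in short tandem repeats. The hg38 assembly closes most chromosome ends with a stretch of unsequenced bases, so the distances below are distances from the end of the assembly and not from the telomere tip.

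Sequence could be read at the sites that touched a RefSeq promoter, here the 250 bases before to 50 bases after a gene start in GRCh38.p14, whose main chromosomes have hg38 coordinates. There were 3 such promoters among the 1039 of the last megabase, and no promoter was touched by both lists, so these 3 were chosen after their positions were seen. They are shown because they give the letters under a site, which are written in capitals, 5′ to 3′ on the gene's strand. The summits of the 3 sites, to which the folds and reads belong, lay outside these promoters.
LOC124901809, chr7:350891-351190, minus strand, 7p, double-knockout site: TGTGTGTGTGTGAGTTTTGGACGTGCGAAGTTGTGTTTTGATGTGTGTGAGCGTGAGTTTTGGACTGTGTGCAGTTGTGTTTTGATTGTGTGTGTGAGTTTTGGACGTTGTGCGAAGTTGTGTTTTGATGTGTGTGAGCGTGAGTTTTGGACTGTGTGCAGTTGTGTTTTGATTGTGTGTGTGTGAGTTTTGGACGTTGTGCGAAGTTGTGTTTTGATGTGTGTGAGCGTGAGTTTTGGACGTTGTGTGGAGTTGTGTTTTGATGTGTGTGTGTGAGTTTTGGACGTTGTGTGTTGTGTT
MGAT1, chr5:180815567-180815866, minus strand, 5q, double-knockout site: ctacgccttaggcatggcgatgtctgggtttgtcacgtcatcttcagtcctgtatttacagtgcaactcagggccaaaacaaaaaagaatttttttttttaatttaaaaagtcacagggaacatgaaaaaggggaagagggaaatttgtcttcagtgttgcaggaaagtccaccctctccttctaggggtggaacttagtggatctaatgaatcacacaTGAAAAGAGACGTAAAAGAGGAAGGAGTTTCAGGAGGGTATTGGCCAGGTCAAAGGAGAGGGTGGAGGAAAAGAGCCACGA
CALY, chr10:133336847-133337146, minus strand, 10q, wild-type site: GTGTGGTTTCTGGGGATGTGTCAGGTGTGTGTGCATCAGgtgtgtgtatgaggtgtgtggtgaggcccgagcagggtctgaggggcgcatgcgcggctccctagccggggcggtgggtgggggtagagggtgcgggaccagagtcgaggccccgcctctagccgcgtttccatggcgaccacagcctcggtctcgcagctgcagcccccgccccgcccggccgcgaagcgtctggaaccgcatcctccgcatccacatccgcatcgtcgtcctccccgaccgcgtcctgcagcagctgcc

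The whole promoter of the uncharacterised gene LOC124901809 lay inside a double-knockout site of fold 4.61. That site overlapped a wild-type site of fold 5.21 and 13 reads, which did not reach the promoter. On the printed strand the LOC124901809 promoter held 45.3% T, against a median of 20.7% over all 35116 promoters of the table. Of those promoters, 0.140% were as rich in T or in A on 1 strand. On the printed strand the other promoters lay closer to that median, with 24% T at MGAT1 and 18.7% at CALY. T and A counted together take in the thymine of both strands. Their share was 56% at LOC124901809, 56.3% at MGAT1 and 31% at CALY, against a median of 41.3%. The words GTGTG and CACAC, counted together on the printed strand, occurred 14 times in the LOC124901809 promoter, a number reached by 0.0228% of promoters. At CALY, which encodes a vesicular protein of neurons, 39 bases lay in a 2926 bp wild-type site of fold 7.18; the double-knockout site there, 2819 bp wide and of fold 7.63, began just upstream of the promoter. Those 39 bases fall in a run of GTGTG words of which the CALY promoter held 4, a number reached by 1.46% of promoters. MGAT1, which encodes the enzyme that starts complex N-glycan synthesis in the Golgi, had 81 bases in a double-knockout site of 21 reads, and its promoter held 1 such word. The telomere repeat unit TTAGGG, searched as such and as its reverse complement CCCTAA, was in none of the 3 promoters and in 9.05% of all promoters. In the double-knockout list 0.192% of last-megabase promoters (exact interval 0.0233% to 0.694%) and 0.211% of all autosomal promoters were touched, and in the wild-type list 0.0962% (0.00244% to 0.535%) and 0.0919%. These shares rest on 2 and 1 promoters.

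Tg sites were denser at the ends than over the rest of the autosomes in both genotypes. The double-knockout list had 6.57 sites per Mb in the last megabase and 3.01 per Mb in the rest, a ratio of 2.18 (95% exact Poisson interval 1.94 to 2.45). The wild-type list had 3.66 and 1.17 sites per Mb, a ratio of 3.13 (2.66 to 3.65). These intervals, like all others here, cover counting error only, since amplified reads are not independent molecules and neighbouring sites are not independent of each other. The last megabase was not the densest zone: between 1 and 5 Mb from the ends there were 7.73 double-knockout and 4.52 wild-type sites per Mb. Counted over the 39 ends that hold an annotated gene, the last megabase had 7.41 double-knockout and 4.13 wild-type sites per Mb, and the 1 to 5 Mb zone of the same ends had 8.72 and 5.10 per Mb. There were 1.80 double-knockout sites for each wild-type site at the ends, against 2.57 over the rest of the autosomes. In the 1 Mb bins between 1 and 5 Mb from the ends this ratio was 1.57 to 1.92, so the last megabase did not stand apart from them. The double-knockout data were 1.69 times deeper by the background of the peak caller, or 1.61 times after division by the narrowest site. The total reads per library are unknown. In a further count, double-knockout reads were divided down to wild-type depth and both lists were held above the wild-type median −log10 p. The share of autosomal sites at the ends was then 5.26% in double-knockout and 4.74% in wild-type cells. These shares rested on 102 and 83 end sites and have no interval, so no order of the genotypes can be read from them.

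**Figure D1:**
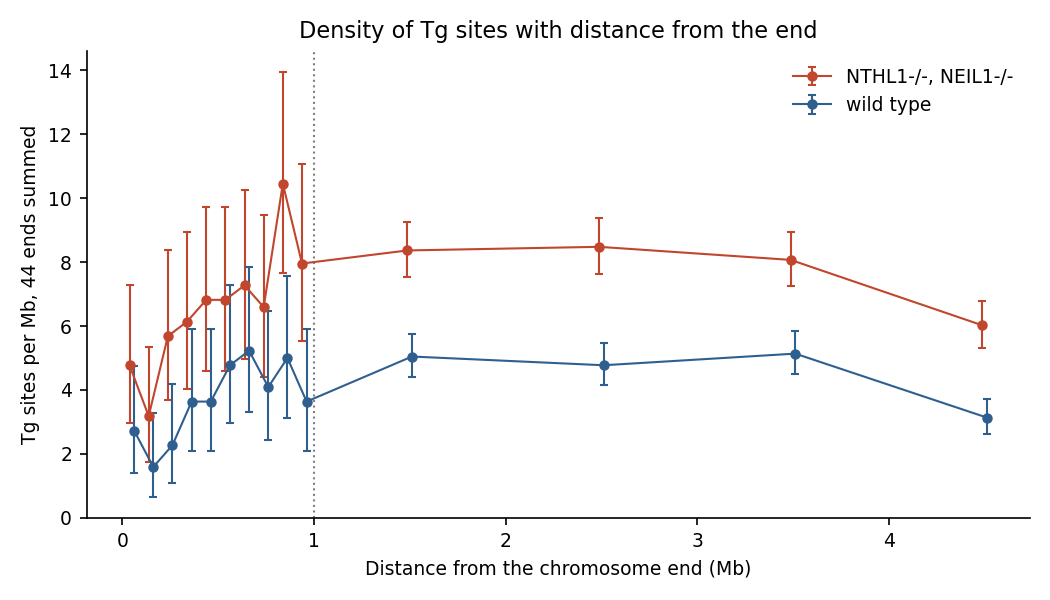
Tg sites per Mb by distance from the chromosome end, with all 44 ends summed; bins are 0.1 Mb wide up to 1 Mb and 1 Mb wide beyond, and bars are 95% exact Poisson intervals. Both genotypes had fewer sites in the first 0.2 Mb (3.98 per Mb in double-knockout cells and 2.16 in wild-type cells) than between 0.2 and 1 Mb (7.22 and 4.03 per Mb).

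Within the last megabase the sites thinned out toward the tip and then piled up at its edge. The first 200 kb held 35 double-knockout and 19 wild-type sites, at 3.98 and 2.16 per Mb, against 7.22 and 4.03 per Mb between 200 kb and 1 Mb. The 100 to 200 kb bin was the sparsest, with 14 double-knockout and 7 wild-type sites over 44 ends. The bin with the most double-knockout sites was 800 to 900 kb, with 46, and the bin with the most wild-type sites was 600 to 700 kb, with 23. In the plot of density against distance the counts are lowest between 0.1 and 0.2 Mb, and within the last megabase the intervals of neighbouring bins overlap.

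A separate set of sites sat where the sequenced assembly begins. Within 20 kb of an end there were 9 double-knockout sites on 8 arms and 8 wild-type sites on 7 arms, all between 10.1 and 11.6 kb from the end. They were at 1p, 1q, 2q, 5p (a pair of sites), 10p, 13q and 22q in both lists, and at 21q in the double-knockout list alone. Their fold enrichment, which is reads at the summit plus 1 over background plus 1 as the caller gives it, had a median of 13.8 (7.65 to 28.0) in double-knockout cells and 16.1 (5.48 to 25.4) in wild-type cells. All other last-megabase sites had a median fold of 5.09 in double-knockout cells and 5.12 in wild-type cells. A fold of at least 10 was found at 7 of the 289 double-knockout end sites (2.42%, against 1.02% of all autosomal sites) and at 8 of the 161 wild-type end sites (4.97%, against 1.5%). In each list 2 of these lay farther than 20 kb from an end, 1 near the end of 18q and 1 in CACNA1B.

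**Figure D2:**
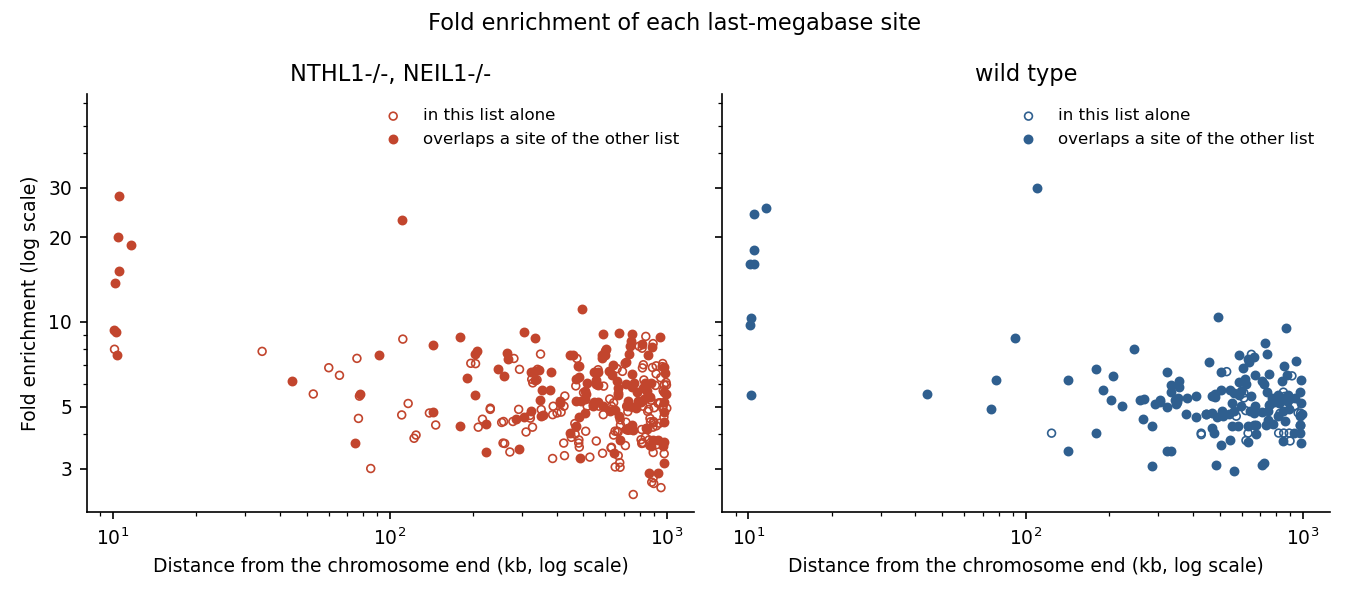
Fold enrichment of each of the 289 double-knockout (left) and 161 wild-type (right) last-megabase sites against distance from the chromosome end, both on log scales; filled points overlap a site of the other list and open points do not. The column of points between 10.1 and 11.6 kb holds 9 double-knockout and 8 wild-type sites, most of them above the main cloud.

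The strongest of these edge sites was the member of the 5p pair farther from the tip, at chr5:11360-11832 in the double-knockout list. It had 108 summit reads in double-knockout cells and 100 in wild-type cells, with folds of 18.9 and 25.4. Its partner at chr5:10248-10674 had 51 and 31 reads and folds of 20.0 and 16.1. The 1q site, chr1:248945550-248946234, had 93 reads in double-knockout cells and 75 in wild-type cells, with folds of 15.2 and 18.0. At 1p the reads were 74 and 53 but the folds 9.18 and 10.4, on backgrounds of 7.17 and 4.22 reads, the highest of the edge sites. At 22q, chr22:50807734-50808209, 62 double-knockout and 41 wild-type reads stood on the lowest background of each list and gave folds of 28.0 and 24.1. The site at 13q had 30 and 27 reads and folds of 13.8 and 16.1, that at 10p 28 and 14 reads and folds of 7.65 and 5.48, and that at 2q 20 and 16 reads and folds of 9.33 and 9.75. The 21q site, double-knockout alone, had 17 reads and a fold of 7.99. None of these sites lay in an annotated gene. The background was the list's lowest, within 1%, at 4 of the 9 double-knockout and 3 of the 8 wild-type edge sites. The part that copy number of the repeated sequence next to the telomere plays in these reads was not tested.

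The sites with the most reads were the same places in both genotypes. Each of the 10 last-megabase sites with the most summit reads in double-knockout cells overlapped 1 of the 10 of wild-type cells, and in each list 5 of the 10 were within 20 kb of an end. Outside the edge, the 18q site at chr18:80262740-80263393, 110.2 kb from the end and in no annotated gene, had 114 double-knockout and 96 wild-type reads and folds of 23.1 and 30.0. It ranked first by q in the whole double-knockout list and 3 in the whole wild-type list. A pair of sites 980 kb from the end of 4q followed another pattern, with many reads on a high background. The larger, chr4:189234923-189235572, had 132 double-knockout and 97 wild-type reads on backgrounds of 29.1 and 18.1, and folds of 4.42 and 5.13. The smaller had 81 and 62 reads and folds of 5.21 and 6.19. The last places were a pair in RAB40B on 17q, which encodes a small GTPase that acts with a ubiquitin ligase complex: 62 and 57 reads in double-knockout cells and 35 and 31 reads in wild-type cells, with folds of 9.03 and 7.46 against 7.63 and 6.13. Among the first 100 sites of a whole list by q, 12 of the double-knockout and 10 of the wild-type list lay in the last megabase.

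Sites were spread over most chromosome ends but unevenly. Of the 44 ends, 37 had a double-knockout site and 33 a wild-type site. The ends without a site in either list were 14q and 18p, and the short arms 13p, 14p, 15p, 21p and 22p, where no gene is annotated in the window. How much of these 5 short-arm ends is sequenced in hg38 was not checked, so their lack of sites is not shown to be a lack of Tg. The 10 ends with the most sites held 50.9% of double-knockout and 57.1% of wild-type sites, and 8 ends were among the first 10 of both lists. Long-arm ends with an annotated gene averaged 9.18 double-knockout and 5.09 wild-type sites, and short-arm ends 5.12 and 2.88. Double-knockout sites outnumbered wild-type sites at 32 ends, wild-type sites were more numerous at 10p (4 double-knockout and 5 wild-type) and 4q (3 and 4), and 3 ends had equal numbers. The density exceeded that of the rest of the same chromosome at 31 of the 39 annotated ends in double-knockout cells and at 28 in wild-type cells. On chromosome 19, whose interior is itself dense with 10.4 double-knockout sites per Mb, the 19p end had 0.770 times the density of the interior in double-knockout cells and 1.03 times in wild-type cells, and the 19q end 1.16 and 0.772 times.

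**Figure D3:**
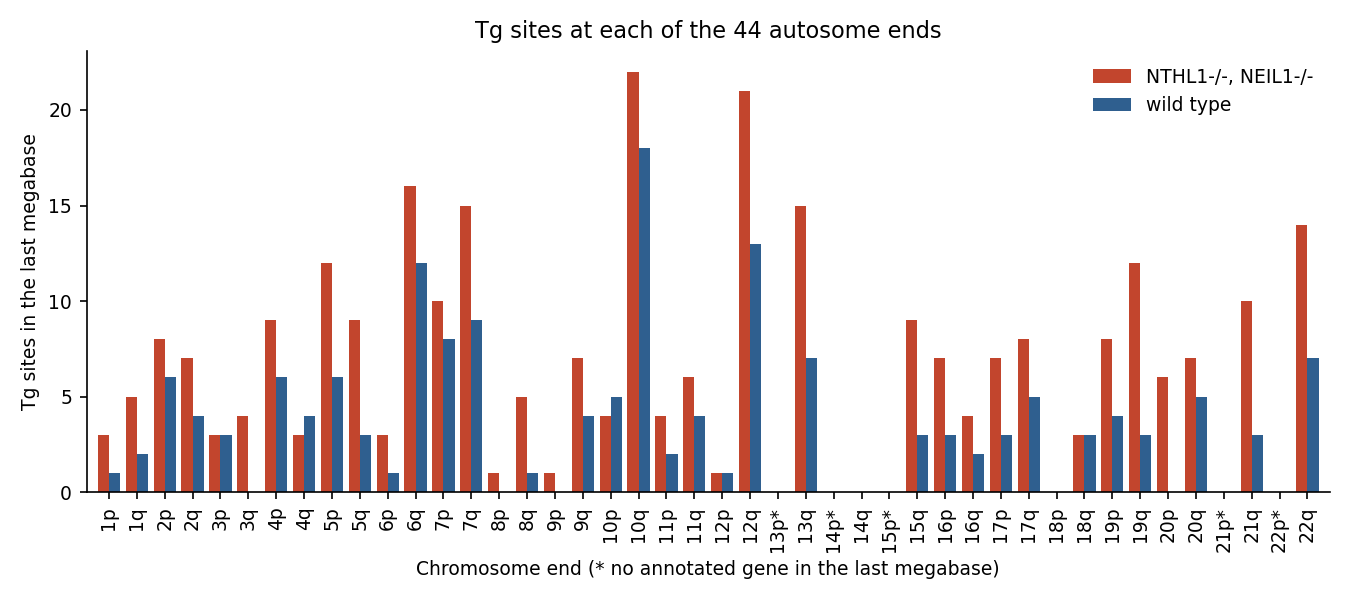
Number of Tg sites in the last megabase of each of the 44 autosome ends, double-knockout cells left and wild-type cells right in each pair; a star marks ends with no annotated gene in the window. The ends of 10q (22 and 18 sites) and 12q (21 and 13 sites) stand highest, and 14q and 18p have no site although genes are annotated there.

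The end of 10q held the most sites, 22 in double-knockout and 18 in wild-type cells, against 3.22 and 1.46 per Mb in the rest of chromosome 10. Wild-type sites were 45.0% of the sites at 10q (exact interval 29.3% to 61.5%), against 28.3% over all autosomes. Of 37 ends, 10q was the only 1 whose interval left out that autosomal value. Over all last-megabase sites the wild-type share was 35.8%, inside the interval of 10q, so 10q is not set apart from the other ends. The sites at 10q fell in a few genes. CFAP46, which encodes a protein of the central apparatus of motile cilia, held 6 double-knockout and 5 wild-type sites (folds 3.16 to 6.98 and 4.02 to 5.03), among them a run of 4 double-knockout sites within 4.47 kb and 3 wild-type sites within 4.51 kb. KNDC1, a neuronal guanine nucleotide exchange factor, held 3 double-knockout and 5 wild-type sites, and only 2 sites of each list overlapped the other list. In the read-through gene ZNF511-PRAP1, 5 double-knockout and 4 wild-type sites were all shared, with folds up to 7.63 and 7.18. The sites of the read-through gene include the pair that lies at PRAP1, a gene of the intestinal lining, and the broad site next to CALY described above.

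At 12q there were 21 double-knockout and 13 wild-type sites. FBRSL1, a paralogue of the neurodevelopmental gene AUTS2, had 2 sites in each list, all shared, with folds of 4.13 and 8.18 in double-knockout cells and 5.07 and 7.67 in wild-type cells. ZNF605, a zinc finger gene, had 2 double-knockout sites and 1 wild-type site, the wild-type one 1535 bp wide with a fold of 6.62. GALNT9, an enzyme that starts mucin-type O-glycosylation, straddled the 1 Mb limit: 3 double-knockout and 2 wild-type sites lay inside it, of 9 and 7 in the whole gene.

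At 6q, 16 double-knockout and 12 wild-type sites were found and none was in a protein-coding gene. Double-knockout cells had a run of 5 sites within 27.6 kb, with folds of 3.05 to 7.04, and wild-type cells had 6 sites within 9.05 kb at its outer end, with folds of 3.74 to 7.36. There 1 double-knockout site, 2282 bp wide, overlapped 3 of the wild-type sites, so the number of sites and the length covered did not go together.

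At 13q there were 15 double-knockout and 7 wild-type sites. TFDP1, the partner of E2F transcription factors, had 3 double-knockout and 2 wild-type sites with folds up to 9.06 and 5.36. GAS6, the ligand of the TAM receptor kinases, had 2 in each list with folds of 5.33 and 4.75 against 5.73 and 3.65. TMEM255B and SLC9D1 had 2 sites each in the double-knockout list alone.

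At 7q, 15 double-knockout and 9 wild-type sites were spread over PTPRN2, NCAPG2, ESYT2, DYNC2I1 and VIPR2 and the sequence between them. PTPRN2, a receptor-type phosphatase of secretory granules, reached into the window with 2 double-knockout sites and 1 wild-type site, of 29 and 24 in the whole gene. ESYT2, which tethers the endoplasmic reticulum to the plasma membrane, had a 2092 bp double-knockout site of fold 5.20 that was matched by a 1464 bp wild-type site of fold 4.83, and 1 further wild-type site of fold 6.66.

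The other ends held 1 to 14 double-knockout and 0 to 8 wild-type sites where they held any. At 22q, PPP6R2, a regulatory subunit of protein phosphatase 6, carried the widest last-megabase site of each list. These sites were 3529 bp in double-knockout and 3194 bp in wild-type cells, with 41 and 23 reads and folds of 6.38 and 5.41. SHANK3, the postsynaptic scaffold lost in Phelan-McDermid syndrome, had 2 double-knockout sites (folds 4.78 and 5.13) and 1 wild-type site (3.49). At 9q, CACNA1B, the pore subunit of N-type calcium channels, had 5 double-knockout and 3 wild-type sites. All 3 wild-type sites were shared, and the strongest had 41 double-knockout and 22 wild-type reads with folds of 11.1 and 10.4. At 19q, 5 double-knockout sites lay within 3.82 kb, the first of them within 1 kb of ZBTB45, a zinc finger and BTB gene; the wild-type list had 2 sites there, of folds 6.21 and 4.91, both shared. At 5p, PLEKHG4B had 3 double-knockout sites and 1 wild-type site, and AHRR, the repressor of the aryl hydrocarbon receptor, had 2 and 1. At 4p, PDE6B, a subunit of the rod phosphodiesterase, had 2 shared sites, with folds of 6.18 and 9.14 in double-knockout and 4.82 and 5.03 in wild-type cells.

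Of the 672 protein-coding genes that reach into the last megabase, 103 (15.3%) held a double-knockout site there and 51 (7.59%) a wild-type site, close to the 14% and 5.93% of all 18973 autosomal protein-coding genes. The double-knockout list had 2.54 autosomal sites for each wild-type site. The following split of genes by list is not given for all autosomal genes, so it is not shown to be particular to the ends. In both lists 45 genes held a site, 58 held double-knockout sites alone and 6 wild-type sites alone. The 6 were TBCD, DPH7, NFATC1, NPRL3, PLPPR3 and PTK6, named after their values were seen; TBCD had 2 sites and the others 1, with folds of 3.97 to 6.43. At least 2 sites in 1 list were found in 35 genes. The 25 of these with the most sites ranged from CFAP46, with 11 in both lists together, to SHANK3, with 3. CIMAP1D on 19p and PCBP3 on 21q, which encodes a poly(C)-binding protein, had 3 double-knockout sites each and no wild-type site, with highest folds of 4.35 and 5.14. The reverse order, more wild-type than double-knockout sites, was seen in KNDC1, DIP2C (1 and 2), ESYT2 (1 and 2), VIPR2 (1 and 2), TBCD (0 and 2) and PRKAR1B (1 and 2), the last a regulatory subunit of protein kinase A, among the 35 genes. In DIP2C both wild-type sites overlapped the single 1109 bp double-knockout site, and in VIPR2 both overlapped the single 1584 bp double-knockout site. LYPD8 on 1q and ZGPAT on 20q, a zinc finger repressor of transcription, had 3 double-knockout sites each and 1 and 2 wild-type sites. MIER2 on 19p had 2 in each list, and GEMIN4 on 17p, a subunit of the SMN complex, 2 double-knockout sites and 1 wild-type site. NXN on 17p, which encodes the redox protein nucleoredoxin, had folds of 8.35 and 8.37 at its 2 double-knockout sites and 4.62 at its wild-type site.

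Groups of genes were counted by whether a member held a site. Among ion channel and receptor genes, 5 of 12 held a double-knockout site (CACNA1B, PTPRN2, VIPR2, KCNG2 and ADGRA1) and 4 a wild-type site (the same without ADGRA1), against 134 and 69 of all 1704 annotated genes of the window (7.86% and 4.05%) and the 15.3% and 7.59% of its protein-coding genes given above; 8 of the 12 code for protein. Of 65 zinc finger genes named ZNF, 53 of them protein-coding, 5 (7.69%) held a double-knockout site and 2 (3.08%) a wild-type site. Of 14 genes known from terminal deletions or dosage disorders, all protein-coding, 3 held a double-knockout site: SHANK3, EHMT1, a histone methyltransferase of Kleefstra syndrome (fold 4.18), and D2HGDH, a mitochondrial dehydrogenase (fold 3.89); SHANK3 alone held a wild-type site. The collagen genes COL6A1 and COL6A2 on 21q had 1 double-knockout site each, with folds of 4.12 and 3.41, and no wild-type site. None of the 109 genes of the duplicated subtelomeric families, such as the DDX11L, WASH and OR4F genes, held a site in either list. Of these genes, 16 code for protein. Taken as 3 over the number of genes, this allows a share of up to 2.75%. Whether reads could be placed in these near-identical copies was not tested. None of 9 DNA repair genes, among them POLE, MPG and RTEL1, held a site. With so few genes this allows a share of up to 33.3%, above the 15.3% and 7.59% of protein-coding genes. The groups differ in gene length, which was not matched.

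By midpoint, 142 double-knockout sites (49.1%) and 76 wild-type sites (47.2%) were in the body of a protein-coding gene. A further 12 (4.15%) and 4 (2.48%) were within 1 kb of an end of such a gene, 31 (10.7%) and 16 (9.94%) in another annotated gene, and 104 (36.0%) and 65 (40.4%) between genes. The rest of the autosomes had 46.0% and 44.4% in protein-coding bodies, within the binomial intervals of the ends (43.2% to 55.1% for double-knockout sites). The ends are richer in genes, with 17.2 protein-coding genes per Mb of the annotated ends against 6.60 over the autosomes and with 51.1% of bases in a protein-coding gene against 42.0%. A transcription start lay within 1 kb of 2.12% of double-knockout and 1.88% of wild-type end sites, against 3.49% and 3.41% of sites elsewhere.

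The medians of width and of reads at the ends were above those of the rest of the autosomes and close to those of the 1 to 5 Mb zone. The median width was 473 bp in double-knockout and 424 bp in wild-type cells, against 407 and 380 bp over the rest of the autosomes and 485 and 419 bp in the 1 to 5 Mb zone. A width of at least 1 kb was reached by 33 double-knockout sites (11.4%, against 5.93% of all autosomal sites) and by 8 wild-type sites (4.97%, against 4.55%), with 9.77% and 5.40% in the 1 to 5 Mb zone. The median number of summit reads was 20 in double-knockout and 14 in wild-type cells, against 17 and 13 over the rest and 19 and 14 in the 1 to 5 Mb zone. Of the end sites, 33.2% in double-knockout and 37.3% in wild-type cells had another of their list within 10 kb, against 22.8% and 22.7% elsewhere. These shares were not adjusted for the higher density of sites at the ends. They were not counted for the 1 to 5 Mb zone, so they are not shown to be particular to the last megabase. Runs of at least 3 sites with gaps of at most 10 kb numbered 15 in double-knockout and 4 in wild-type cells.

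Overlap between the genotypes was higher at the ends than over the autosomes. By at least 1 shared base, 137 of 289 double-knockout sites overlapped a wild-type site (47.4%, exact interval 41.5% to 53.3%), against 28.5% of all autosomal sites. Conversely 139 of 161 wild-type sites overlapped a double-knockout site (86.3%, 80.0% to 91.2%), against 75.7%. The zone from 1 to 5 Mb had shares of 46.0% and 83.7%, so the last megabase did not stand apart from it. Strong sites are shared more often in any zone. The end sites were more often in the strongest 4th of the double-knockout list by q (38.4%, against 24.5% of sites elsewhere). In the wild-type list these shares were closer, 27.3% and 24.2%. With each list cut into 4 equal groups by q, 58.1% of end sites in group 3 of the double-knockout list were shared against 27.7% elsewhere, and in group 4, the strongest, 69.4% against 60.4%, where the interval of the ends (59.9% to 77.8%) covered the other value.

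**Figure D4:**
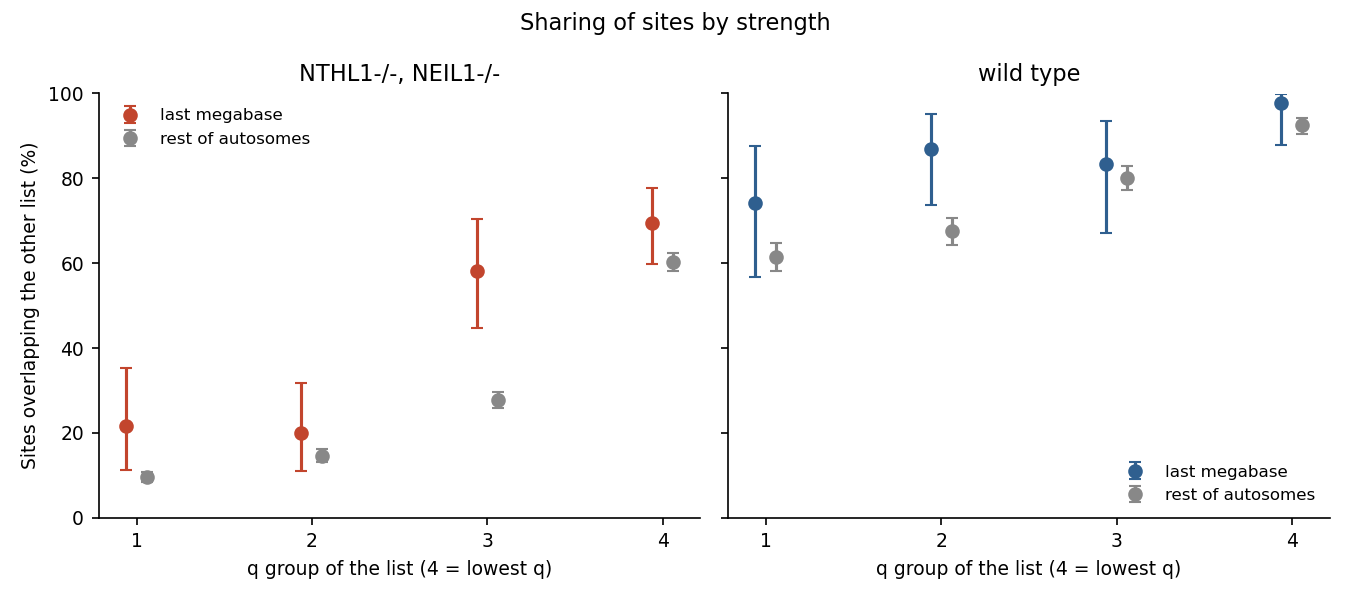
Share of sites that overlap the other list, in 4 equal groups of each whole list ordered by q, for double-knockout (left) and wild-type (right) cells; coloured points are last-megabase sites, grey points the rest of the autosomes, and bars 95% exact binomial intervals. Every coloured point lies above its grey one, with intervals apart from the grey value in double-knockout groups 1 and 3 and wild-type group 2.

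Where both genotypes had a site, the reads were nearly equal once scaled by the caller's background. Such scaling would also remove a change common to the whole genome, and only sites listed in both genotypes enter. Double-knockout reads divided by 1.69 and then by wild-type reads had a median of 0.960 over the 139 shared wild-type end sites (order-statistic interval 0.913 to 1.013, central 50% of sites from 0.805 to 1.11), against 0.939 at shared sites elsewhere. The scaled double-knockout reads were more than 1.5 times the wild-type reads at 7 of the 139 (5.04%, against 4.98% of all shared autosomal sites) and less by more than 1.5 times at 9 (6.47%, against 10.5%). The 7 include sites in NXN (1.58), DRC4 on 16q (1.67) and GALNT9 (1.65), with 9 to 12 wild-type reads each. With 1.61, the ratio for depth alone, as the divisor, the median was 1.01. Then 9 of the 139 were more than 1.5 times the wild-type reads and 3 less by more than 1.5 times. Strength was the geometric mean of wild-type and scaled double-knockout reads. With 1.69 as the divisor, the 10 shared end sites of strength 30 or more had a median ratio of 0.815. Its order-statistic interval, 0.702 to 1.05, covered 1, and 2 of the 10 were above 1. At the RAB40B pair the ratios were 1.05 and 1.09. The 8 shared edge sites within 20 kb of an end, some of them weaker, had a median of 0.782, with 1 of 8 above 1. Over the rest of the autosomes, shared sites of strength 30 or more had a median of 0.675.

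**Figure D5:**
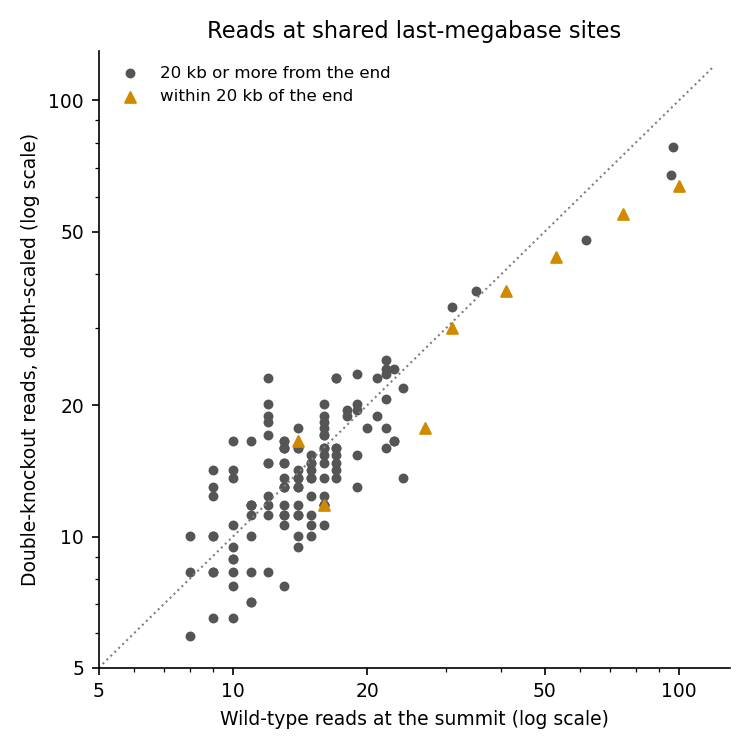
Summit reads at the 139 last-megabase sites shared by the genotypes: depth-scaled double-knockout reads on the vertical and wild-type reads on the horizontal axis, both logarithmic, with a dotted line at equality. Triangles are the 8 sites within 20 kb of an end, of which 7 lie below the line; the median ratio over all points is 0.960.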

How the data were processed

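The members and gene lists were chosen with earlier results of these data known. For each genotype the authors deposited 1 peak list, laid out like MACS2 output, without values for single libraries. The submitters' processing notes name MACS2, Bowtie2, deepTools, bedtools and build hg38; versions, settings and the way the 2 libraries and the input of a genotype were combined are not given in those sources. The deposited score was 10 times the −log10 q, rounded down. The deposited fold enrichment is a ratio of summit reads to background, and the deposited −log10 p and −log10 q are the caller's; in the authors' deposited table the largest q was 0.0489 in the double-knockout and 0.0450 in the wild-type list. Whole reads were recovered from fold and −log10 p within 0.001 at 100% of sites (6 to 452 reads, median 17, in the double-knockout list and 6 to 405, median 13, in the wild-type list). Total reads per library are unknown; double-knockout over wild type, the lowest background had a ratio of 1.69, or 1.61 after division by the narrowest site.

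The gene annotation was a RefSeq table (GRCh38.p14). In it 718 genes of other scaffolds carry main-chromosome names with scaffold coordinates and were dropped, since they would fall at the short-arm tips; 58961 were kept, 19866 of them protein-coding. Named were the 25 protein-coding genes with at least 2 sites in either list and the most in both, the 10 sites with the most reads, the ends with the most or no sites, and promoters with a site. Intervals are 95% exact binomial or Poisson, or order statistics for a median. The limits for gene groups without a site are not exact and were taken as 3 over the number of genes. The reading of reads, overlaps and annotation was tested on simulated data. Python 3.11.15, numpy 2.4.6, scipy 1.17.1, pandas 2.3.3 and matplotlib 3.10.9 were used. Alternatives covered the window, q, overlap, counting, depth and gene-edge rules.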

Additional observations from a re-analysis of the deposited data

How the results depend on the processing

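The 17 main values were recomputed 120 times under 23 alternative settings, of which 84 stayed within the interval of the main value, or within 1.5 times for counts. Set against the 1 to 5 Mb zone in place of all other sequence, the density ratio reversed to 0.849 in double-knockout and 0.809 in wild-type cells. A 0.5 Mb window gave 117 double-knockout and 61 wild-type sites (1.33% and 1.76% of autosomal sites), density ratios of 1.75 and 2.32, and 95.1% of wild-type sites shared. A 2 Mb window gave 657 and 383 sites (7.46% and 11.0%) and ratios of 2.55 and 3.93. Keeping 1 site per 100 kb left 160 and 97 sites (2.72% and 3.78%) and ratios of 1.80 and 2.53. With double-knockout reads divided down to wild-type depth, with no random draw, and both lists above the wild-type median −log10 p, 102 and 83 end sites remained. Their shares were 5.26% and 4.74%, without intervals, so the order of the genotypes seen in the full lists was not kept and no other order is shown. By q group the shared percentage of double-knockout sites was 21.6, 20.0, 58.1 and 69.4 from the weakest to the strongest, and that of wild-type sites moved to 74.3 in the weakest and 97.7 in the strongest. The median read ratio was 1.03 at strengths of 15 to 30 and 0.815 at 30 or more. A gene edge of 5 kb moved the edge class to 27.7% and 19.9% and the protein-coding body to 31.5% and 33.5%. Leaving out the sites within 20 kb of an end was chosen after seeing the data. No paired analysis was possible because each genotype has 1 list and the columns carry no replicate numbers. Depth limits weak sites most: the median site had 17 double-knockout or 13 wild-type reads, and a site missing from 1 list is not shown to lack Tg.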

Other observations

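Outside the autosomes, the end of Xq held 2 double-knockout sites and 1 wild-type site. The shared one lay in FUNDC2, a gene of the outer mitochondrial membrane, 993.1 kb from the end, with 24 double-knockout and 11 wild-type reads and folds of 5.97 and 4.02. The other, 794.0 kb from the end and in no protein-coding gene, had 14 double-knockout reads and a fold of 4.42.

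On 4q another shared site lay 91.7 kb from the end, with 28 double-knockout and 23 wild-type reads and folds of 7.65 and 8.77. All 6 sites of 20p and all 4 of 3q were in the double-knockout list alone, with folds of 3.45 to 7.41 on 20p and 4.36 to 6.33 on 3q. Sites without overlap were common in that list: 152 of its 289 last-megabase sites and 6298 of its 8810 autosomal sites.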
